A study of Drosophila melanogaster with 7 samples.

Results

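The genes described here are the metallothioneins of Drosophila melanogaster and the genes of its copper transport, chosen by name: the metallothioneins MtnA, MtnB, MtnC, MtnD, MtnE and MtnF, the copper importers Ctr1A and Ctr1B, the copper exporter ATP7 and the metal-responsive transcription factor MTF-1. They are 10 of the 24204 genes and other features in the deposited gene table. RNA was sequenced from dissected midguts, the digesting and absorbing part of the fly gut, of virgin females of the strain sg-Gal4,UAS-GFP. Every group carried this driver and reporter, and the labels do not say in which cells the driver acts. The flies lived in closed cabinets at 10% oxygen (hypoxia), 20% (normoxia) or 40% (hyperoxia), and RNA was taken at day 53. There were 3 libraries at 10%, 3 at 20% and 1 at 40%. Replicates 1 and 2 at 10% and 20% are labelled batch 1, and replicate 3 of both groups and the only library at 40% are labelled batch 2. Nothing in the labels ties replicates to separate animals or cultures, so a p-value here reflects the variation among these libraries, which could be technical.

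Metallothioneins are very small, cysteine-rich proteins that bind copper, zinc and cadmium ions and keep them from reacting in the cell. In the fly, MTF-1 binds metal response elements in the promoters of the metallothionein genes and switches them on under metal load, and it activates Ctr1B when copper is scarce. Copper from food enters gut cells through Ctr1 proteins, is handed on by chaperones, and leaves through the pump ATP7. Copper cells, an acid-secreting cell type of the middle midgut, are known in the fly for storing copper. MtnA is the metallothionein most tied to copper and MtnB the one most tied to cadmium.

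The metallothionein genes lie on chromosome arm 3R, with coordinates on assembly BDGP6.54. MtnA spans 9783407 to 9784370 on the minus strand. MtnC (20360308 to 20360634, plus strand), MtnB (20503102 to 20503746, minus), MtnE (20534021 to 20534704, minus) and MtnD (20534962 to 20535301, plus) form a group more than 10 megabases away. MtnE and MtnD stand head to head, with 257 bases between them. MtnF spans 24634625 to 24635165 on the minus strand. Each metallothionein transcript has 2 exons. The transcripts are short: MtnC has 1 transcript of 268 bases and MtnD 1 of 274 bases, while the shortest MtnA transcript has 329 bases and carried 94.3% to 96.0% of that gene's expected counts. Ctr1B (3R, 8317612 to 8319205, plus) has 1 transcript of 953 bases. Ctr1A (X, 6661647 to 6668258, plus), ATP7 (X, 11855022 to 11864754, plus) and MTF-1 (3L, 9430312 to 9439490, plus) have transcripts of 1503 to 5157 bases. Reads of the metallothionein paralogs could be split among them by the quantification, so the sum over the family is given beside the single genes. Ctr1B shares exon sequence with lncRNA:CR45215 on the same strand, which held 34.1 to 208 expected counts a library, so a split of reads between them cannot be told apart from their levels.

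Total expected counts were 19.22 to 22.22 M (mega) a library. Transcripts of the mitochondrial genome took 4.10% to 4.68% of them in batch 1 and 61.0% to 71.0% in batch 2, the latter at 40% oxygen. Mean fragment length was 273 to 281 bases in batch 1 and 230.3 to 255 bases in batch 2, with the lowest value in the 40% library. All 8 midgut markers were detected in every library, with a summed level of 48500 to 57200 counts per M after TMM scaling (TMM-scaled CPM) in batch 1. In batch 2 the sum was 30900 at 10%, 29300 at 20% and 17100 at 40%. Because batch 2 stands apart, each oxygen comparison below is given within batches and from fits with batch as a term. In bulk tissue, fewer cells of a type and less RNA per cell cannot be told apart.

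MtnA was by far the most abundant of the 10 genes. On the TPM scale, which divides by transcript length, its level was 5914 to 8719 in batch 1 and 24098 to 74815 in batch 2. By TPM it ranked between 19 and 26 among all features in batch 1, 6 and 8 in batch 2 at 10% and 20% oxygen, and 2 at 40%. MtnC came next within every batch 1 library (1787 to 2498 TPM), followed by MtnE (273 to 694), MtnB (161 to 262) and MtnD (107 to 210), of which the last pair overlapped in range. In the batch 2 libraries MtnC had 1069 to 1722 TPM and MtnB 553 to 2134, so that these overlapped. MtnE, with 328 to 553, reached the lowest MtnB value, and MtnD had 127 to 238. Ctr1B was the most abundant transport gene at 73.1 to 83.2 TPM in batch 1 and 32.6 to 121 in batch 2. MTF-1 (16.9 to 17.5), Ctr1A (14.2 to 15.5) and ATP7 (7.60 to 8.86) were ordered without overlap in batch 1. In batch 2 they had 2.99 to 3.66, 2.94 to 4.83 and 1.31 to 1.87 TPM, and MTF-1 and Ctr1A overlapped. MtnF, a metallothionein gene of which only 2 counts were seen in 1 library (replicate 2 at 20%) and 0 in the other libraries, was below the detection floor of 3 counts everywhere. The floor corresponds to 0.0827 to 0.332 TMM-scaled CPM. MtnF failed the filter on low counts and was not tested, leaving 9 of the 10 genes.

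**Figure D1:**
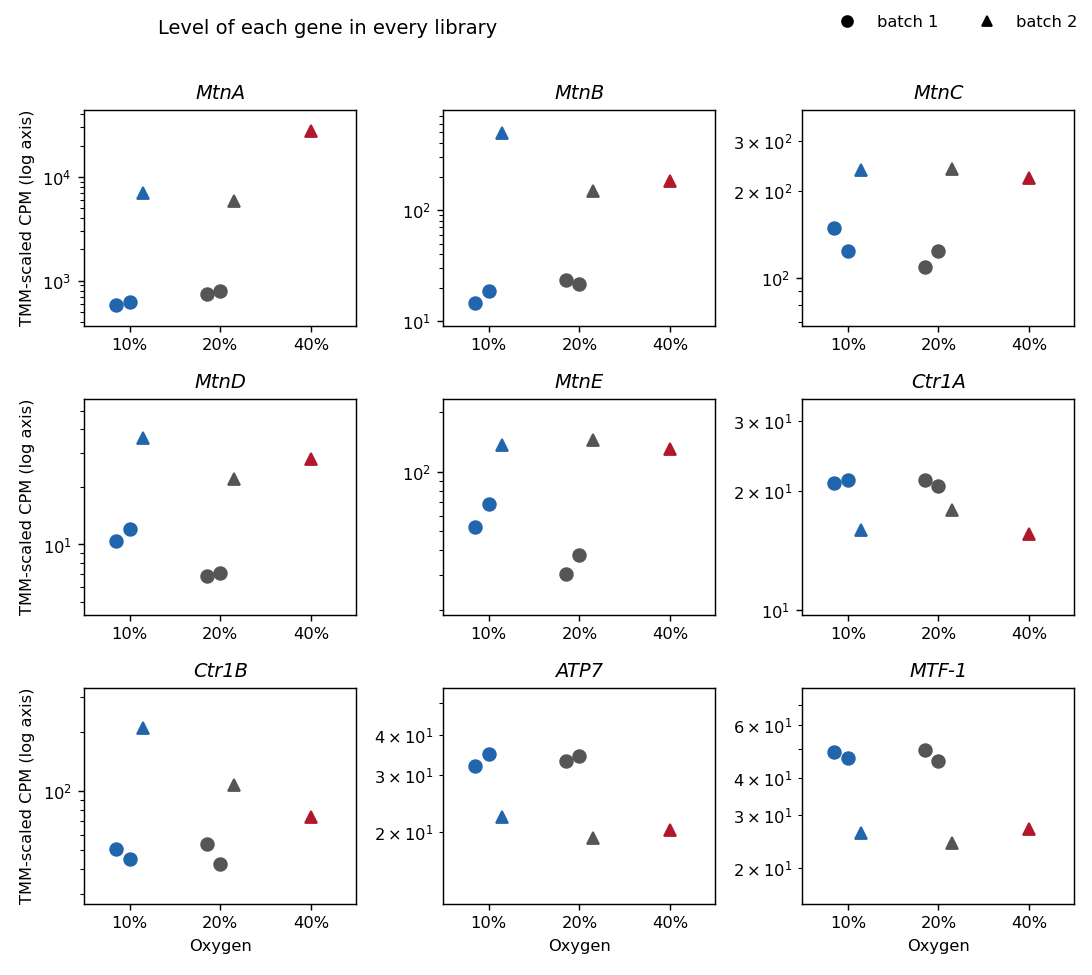
Level of each gene in every library, as TMM-scaled CPM on a log axis, by oxygen level, with points marked by batch. MtnA reached 27307 in the 40% library against 7043 and 5899 in the other batch 2 libraries, and the metallothioneins and Ctr1B stood higher in batch 2 while Ctr1A, ATP7 and MTF-1 stood lower.

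The comparison of 40% with 20% oxygen asks what hyperoxia does to the midgut at day 53, and MtnA was the gene of this group that rose. In batch 1 its TMM-scaled CPM was 588 and 619 at 10% oxygen and 746 and 800 at 20%. In batch 2 it was 7043 at 10%, 5899 at 20% and 27307 at 40%. The 40% library thus lay above every other library, and above its batch mates at 20% and 10% by 4.63 and 3.88 times. In counts, these 3 libraries held 68784 (20%), 77995 (10%) and 246987 (40%) MtnA counts. The fitted log2 fold change at 40% against 20% was 1.99 (SE 0.24, edgeR quasi-likelihood test, Benjamini-Hochberg adjusted p = 0.0277). Against 10% it was 2.15 (SE 0.23, adjusted p = 0.0326). Both comparisons use the same single 40% library and so are not independent, and the fit gave it the variation seen in the other groups. MtnA was the only one of the 9 tested genes called in either comparison, 1 of 9, where 4.13% of all features tested were called at 40% against 20% (1.83% higher) and 2.19% at 40% against 10% (0.705% higher).

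The MtnA call was lost without some single libraries. Without replicate 1 or 2 at 10%, or replicate 2 at 20%, the log2 fold change at 40% against 20% was 2.04, 2.02 and 2.04, but the edgeR adjusted p was 0.064, 0.055 and 0.0807. For 40% against 10%, the adjusted p without these libraries was 0.0834, 0.0632 and 0.113. A block for each replicate number of batch 1, with batch 2 as a single block, ended the MtnA call too. The values were 1.99 (edgeR adjusted p = 0.0615) against 20% and 2.15 (adjusted p = 0.0744) against 10%. The number of calls over all features also changed. At 40% against 20% it was 416 in the main fit, and 9, 30 and 366 without replicates 1, 2 and 3 at 10%. It was 183, 2 and 126 without replicates 1, 2 and 3 at 20%, and 51 with the block. At 40% against 10% it was 220 in the main fit, and 8, 10 and 15 without replicates 1, 2 and 3 at 10%. It was 107, 0 and 274 without replicates 1, 2 and 3 at 20%, the last a rise, and 11 with the block.

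The metallothionein transcripts taken as a family followed MtnA. MtnA held 98.0% of the family's counts in the 40% library, and 88.6% and 91.4% in its batch mates at 10% and 20%. The family tests are thus not separate from those of MtnA. Their summed level was 813.5 and 842 TMM-scaled CPM in batch 1 at 10% oxygen and 916 and 990 at 20%. The batch 2 sums were 7948 at 10%, 6453 at 20% and 27870 at 40%. The family sum rose by a log2 of 1.93 (SE 0.21, edgeR adjusted p = 0.0252) at 40% against 20%. It was 1.97 (SE 0.21, adjusted p = 0.0325) above 10%. Without replicate 1 or 2 at 10%, or replicate 2 at 20%, the edgeR adjusted p against 20% was 0.064, 0.0547 and 0.0777, and against 10% it was 0.0829, 0.063 and 0.113. Against 10% the call was also lost without replicate 3 at 10% (2.31, adjusted p = 0.0616). With the replicate block, in which batch 2 is a single block, the edgeR adjusted p was 0.0576 and 0.0719. As a share of a library's counts outside the mitochondrial genome, the family held 0.135% to 0.169% in batch 1, while batch 2 had 1.18% at 10%, 1.08% at 20% and 4.40% at 40%. Of all counts, the shares were 0.129% to 0.162% in batch 1, and in batch 2 0.458% at 10%, 0.388% at 20% and 1.27% at 40% (exact Clopper-Pearson 95% interval 1.27% to 1.28%, which covers counting error only).

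Within the family the mix of transcripts also differed. MtnA made up 64.1% and 66.4% of metallothionein TPM in batch 1 at 10% oxygen and 74.9% and 74.0% at 20%. The batch 2 share was 85.8% at 10%, 88.6% at 20% and 97.3% at 40%. In each batch the share was thus ordered by oxygen level, without overlap in batch 1 and with 1 library a level in batch 2. This is a description for which no test was run. The remainder in batch 1 was mostly MtnC, at 27.1% and 22.5% at 10% and 18.6% and 19.5% at 20%. MtnE held 5.33% and 6.86% at 10% against 2.84% and 3.29% at 20%. In the 40% library MtnC held 1.39%, MtnB 0.719%, MtnE 0.426% and MtnD 0.165% of metallothionein TPM.

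**Figure D2:**
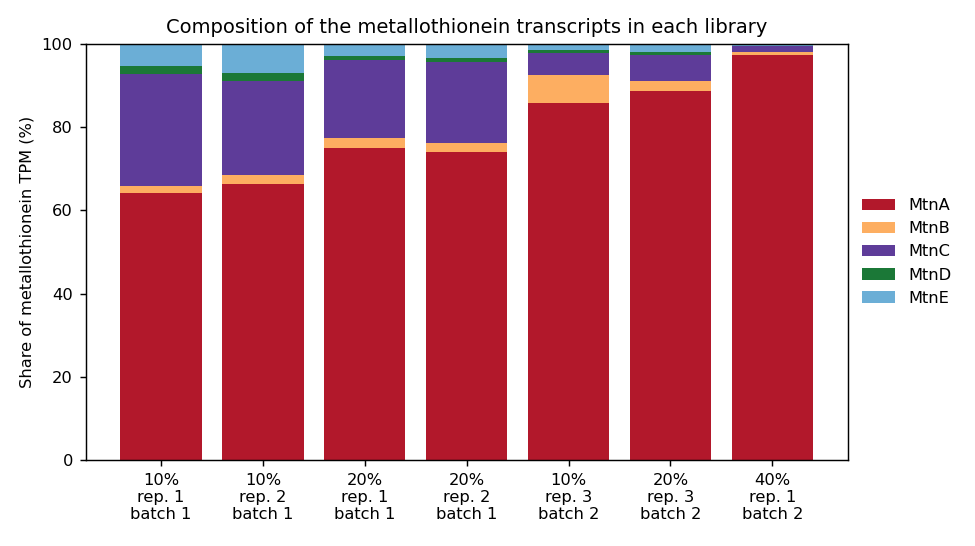
Share of each metallothionein in the summed metallothionein TPM of each library, in percent, as stacked bars. The MtnA share ran from 64.1% to 74.9% in batch 1, and the batch 2 libraries had 85.8% (10% oxygen), 88.6% (20%) and 97.3% (40%).

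Of the other metallothioneins, edgeR with batch as a term called 0 of 4 at 40% oxygen against either level. MtnB had 494 TMM-scaled CPM in batch 2 at 10%, 148 at 20% and 183 at 40%, so that the 40% library lay between its batch mates. Its log2 fold change at 40% was -0.60 (SE 0.89, edgeR adjusted p = 0.774) against 20% and -0.88 (SE 0.82, adjusted p = 0.660) against 10%. These values turned on replicate 3 at 10%, without which they were 0.31 and 0.75. MtnC, with 238 in batch 2 at 10%, 239 at 20% and 222 at 40%, had a log2 fold change of -0.03 (SE 0.18, adjusted p = 0.956) against 20%. Without replicate 3 at 20% this was 0.13. MtnD, with 35.9, 22.1 and 28.0 in the same libraries, stood between its batch mates at 40%, with a log2 fold change of 0.33 (SE 0.13, adjusted p = 0.235) against 20% and -0.36 (SE 0.14, adjusted p = 0.229) against 10%. MtnE, with 137, 146 and 130, was at 0.11 (SE 0.37, adjusted p = 0.914) against 20% and -0.41 (SE 0.40, adjusted p = 0.660) against 10%. The sign for MtnE against 20% was the opposite without replicate 3 at 10% (-0.16). With the trend of fold change on transcript length removed, the values of MtnB, MtnC, MtnD and MtnE against 20% were all negative (-1.14, -0.72, -0.34 and -0.37, adjusted p = 0.101 or more). They were -1.38, -0.80, -0.96 and -0.87 against 10%, where MtnD was called lower (adjusted p = 0.0468). On the TPM scale MtnD and MtnE were at -0.23 and -0.42 against 20%, and MtnD at -0.92 against 10%. The median of all features was -0.46 in both comparisons. Limma called MtnD lower against 10%, in a fit where nearly all calls over all features were lower. Effective lengths as offsets left MtnD at 0.21 against 20% and -0.48 against 10% (edgeR adjusted p = 0.549 and 0.199).

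The comparison of 10% with 20% oxygen asks what hypoxia does. Of the 9 tested genes, 0 were called by edgeR, as were 0 of all 9278 features tested (percent called 0). At an unadjusted edgeR p below 0.05 there was 1 of the 9, MtnD, against 6.24% of all features. DESeq2 called 1 of the 9, also MtnD, against 1.34% of all features, and limma voom called 0 of the 9.

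MtnD, the neighbour of MtnE, showed the most even difference. Its TMM-scaled CPM in batch 1 was 10.4 and 12.1 at 10% oxygen and 6.86 and 7.05 at 20%. The batch 2 levels were 35.9 at 10% and 22.1 at 20%. The level was higher at 10% by 1.61 times in batch 1, without overlap, and by 1.62 times in batch 2, where each group has 1 library. The log2 fold change was 0.69 (SE 0.09), at rank 18 of 9278 features by p, with an edgeR adjusted p of 0.144 and a DESeq2 adjusted p of 4.05e-05. MtnE pointed the same way in batch 1 and not in batch 2. It had 52.3 and 68.4 at 10% against 30.2 and 37.7 at 20% in batch 1, and 137 against 146 in batch 2. The ratios were 1.78 and 0.94, and the log2 fold change over both batches was 0.52 (SE 0.24, edgeR adjusted p = 0.806).

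MtnA and MtnB were lower at 10% than at 20% oxygen in batch 1 and higher in batch 2. MtnA was at 0.78 times its 20% level in batch 1, with no overlap, and at 1.19 times in batch 2. MtnB, at 14.5 and 18.9 against 23.5 and 21.7 TMM-scaled CPM, was at 0.74 times in batch 1. In batch 2 it was at 3.35 times, 494 against 148. Over both batches the log2 fold change was -0.15 (SE 0.15, edgeR adjusted p = 0.893) for MtnA and 0.27 (SE 0.56, adjusted p = 0.959) for MtnB. Without replicate 3 of either group the MtnB value was -0.44. MtnC, at 148 and 123 against 109 and 123 in batch 1, overlapped between the groups, and had a log2 fold change of 0.15 (SE 0.11, adjusted p = 0.856). For the family sum it was -0.04 (SE 0.13, adjusted p = 0.989), with ratios of 0.869 in batch 1 and 1.23 in batch 2. Whether the difference between 10% and 20% oxygen itself differed between batches was tested as an interaction. By edgeR 0 of the 9 genes were called, where 0.0862% of all features were, and 4 of the 9 had an unadjusted p below 0.05, where 10.7% of all features did. These 4 were MtnA, MtnB, MtnE and Ctr1B. DESeq2 called MtnA and MtnB, where it called 1.42% of all features.

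**Figure D3:**
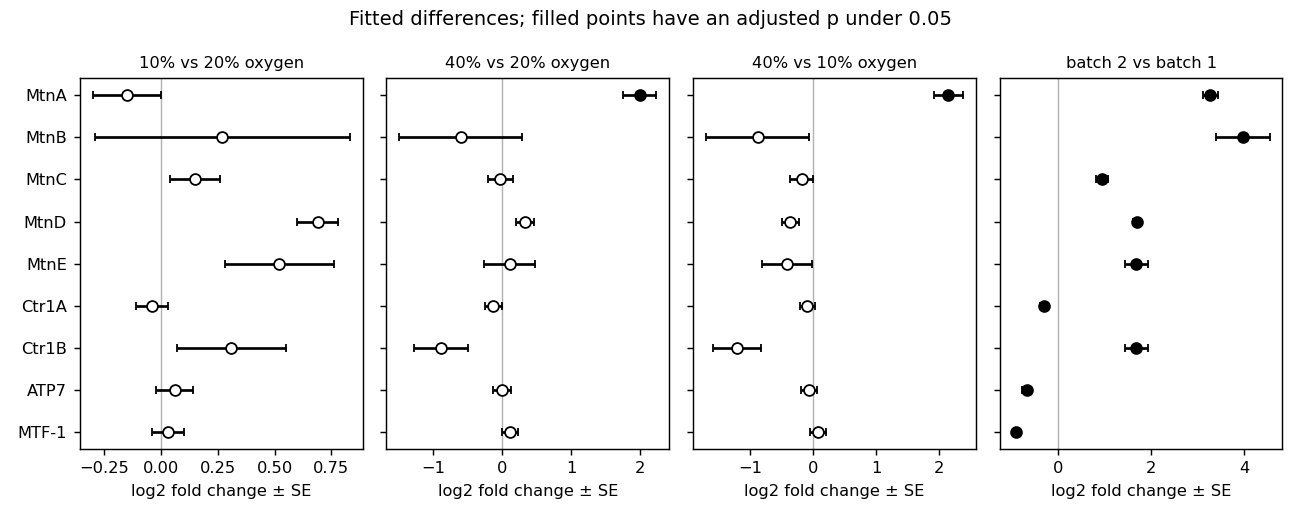
Fitted log2 fold change with its SE for the 9 tested genes in each comparison, filled where the edgeR adjusted p was below 0.05. MtnA is the filled point at 40% against 20% (1.99) and 40% against 10% (2.15), no point is filled at 10% against 20%, and every point is filled between batches.

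Of the copper importers, Ctr1B, which serves the gut and is under MTF-1 control in the fly, varied more than Ctr1A. Its TMM-scaled CPM was 50.8 and 45.1 at 10% and 54.0 and 42.8 at 20% in batch 1, with overlap. In batch 2 it was 208 at 10%, 107 at 20% and 74.2 at 40%. There the level was lowest at 40% and highest at 10%, each from 1 library. The log2 fold change at 40% was -0.89 (SE 0.39, edgeR adjusted p = 0.293) against 20% and -1.20 (SE 0.38, adjusted p = 0.186) against 10%. DESeq2, which called 8.09% of all features in that comparison, gave an adjusted p of 0.0424 for the second, and edgeR gave -1.48 (adjusted p = 0.0482) without replicate 3 at 20% and -0.51 (adjusted p = 0.37) without replicate 3 at 10%. Against 20%, the values without these libraries were -1.50 (adjusted p = 0.0814) and -0.52 (adjusted p = 0.233). On the TPM scale they were -1.30 and -1.61 against 20% and 10%, where the median of all features was -0.46. Limma called Ctr1B lower in both, in fits where nearly all calls over all features were lower. At 10% against 20% it was 0.31 (SE 0.24, adjusted p = 0.865), with ratios of 0.991 in batch 1 and 1.95 in batch 2.

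Ctr1A, the importer used by most fly tissues, had 20.9 and 21.2 TMM-scaled CPM at 10% and 21.2 and 20.6 at 20% in batch 1. The batch 2 libraries had 15.9 at 10%, 17.8 at 20% and 15.6 at 40%. On the TPM scale Ctr1A at 40% was at -0.62 against 20% and -0.56 against 10%, where the median of all features was -0.46. Groups overlapped in batch 1, and the log2 fold change was -0.04 (SE 0.07, edgeR adjusted p = 0.999) at 10% against 20% and -0.13 (SE 0.12, adjusted p = 0.686) at 40% against 20%.

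ATP7, the pump that exports copper and loads it onto secreted enzymes, had 32.0 and 34.8 at 10% and 33.1 and 34.4 at 20% in batch 1. In batch 2 it had 22.3, 19.2 and 20.2 at 10%, 20% and 40%. Its groups overlapped in batch 1 and the 40% library lay between its batch mates. The log2 fold change was 0.06 (SE 0.08, edgeR adjusted p = 0.927) at 10% and -0.01 (SE 0.13, adjusted p = 1.0) at 40%, both against 20%.

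The regulator MTF-1 had 48.7 and 46.8 TMM-scaled CPM at 10% and 49.7 and 45.6 at 20% in batch 1, and 26.2, 24.4 and 27.0 at 10%, 20% and 40% in batch 2. These levels overlapped between oxygen groups in batch 1, and in batch 2 the 40% library was highest by a small margin. The log2 fold change was 0.03 (SE 0.07, edgeR adjusted p = 0.959) at 10% and 0.11 (SE 0.12, adjusted p = 0.664) at 40%, both against 20%. On the TPM scale the 40% value was -0.26, where the median of all features was -0.46. An estimate of 0.11 with an SE of 0.12 does not show that the regulator's RNA was equal between groups, and RNA level does not report the activity of a metal-activated factor.

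The copper genes differed between the batches in both directions. MtnA, MtnB, MtnC, MtnD, MtnE and Ctr1B were higher in batch 2, and Ctr1A, ATP7 and MTF-1 lower, in the 6 libraries at 10% and 20% oxygen with oxygen as a term. All 9 tested genes were called, where 55.8% of all features tested were (28.6% higher and 27.3% lower). The log2 difference was 3.96 (SE 0.58, edgeR adjusted p = 0.00695) for MtnB, 3.27 (SE 0.16, adjusted p = 5.32e-05) for MtnA and 1.68 (SE 0.24, adjusted p = 0.00349) for Ctr1B. Without replicate 3 at 10%, the values were 2.73 for MtnB and 1.16 for Ctr1B, and without replicate 3 at 20% they were 4.91 and 2.13. The difference was -0.90 (SE 0.08) for MTF-1, -0.68 (SE 0.09) for ATP7 and -0.30 (SE 0.08, adjusted p = 0.0230) for Ctr1A. The Ctr1A call was lost without replicate 1, 2 or 3 at 10% (adjusted p = 0.0622, 0.0596 and 0.136). For MtnC, MtnD and MtnE it was 0.94, 1.69 and 1.68, and without replicate 3 at 10% or at 20% MtnE was at 2.12 or 1.20. With the length trend removed, MtnC was called lower in batch 2, at -0.80 (edgeR adjusted p = 0.00298). MtnD was at -0.02 (adjusted p = 0.881) and MtnE at 0.30 (adjusted p = 0.38), and neither was called. ATP7 at -0.06 (adjusted p = 0.607) and Ctr1A at -0.20 (adjusted p = 0.0933) were not called either. In that fit 5 of the 9 genes were called, where 4255 of 9278 features were. With effective lengths as offsets the values were instead close to the first ones, at 1.08, 1.81 and 1.71 for MtnC, MtnD and MtnE, -0.75 for ATP7 and -0.28 for Ctr1A. On the TPM scale MtnC stood at -0.37, where the median of all features was -1.42. On that scale Ctr1B (0.19, limma adjusted p = 0.421) and MtnE (0.25, adjusted p = 0.457) were not called.

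Short transcripts as a class differed at 40% oxygen and between batches. The part of this in the MtnA result was not tested, and the MtnA value with the length trend removed is given below. The 66 other tested features with a mean effective length of 50 to 130 bases, the range that holds MtnA to MtnE, had a median log2 fold change of 0.51 at 40% against 20%, where that of all features was -0.03. Of these 66, 8 were called higher (12.1%, where 1.83% of all features were) and 9 had a fold change above that of MtnA. At 40% against 10% their median was 0.64, 4 were called higher (6.06%, where 0.705% of all features were) and 10 exceeded MtnA. With the length trend removed, MtnA was at 1.49 (SE 0.24, edgeR adjusted p = 0.0453) at 40% against 20%. The other short family members MtnB to MtnE lay between -0.60 and 0.33 before that removal and between -1.14 and -0.34 after it. Between batches the 51 other short features had a median of 2.16, and 21 of them exceeded MtnA.

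**Figure D4:**
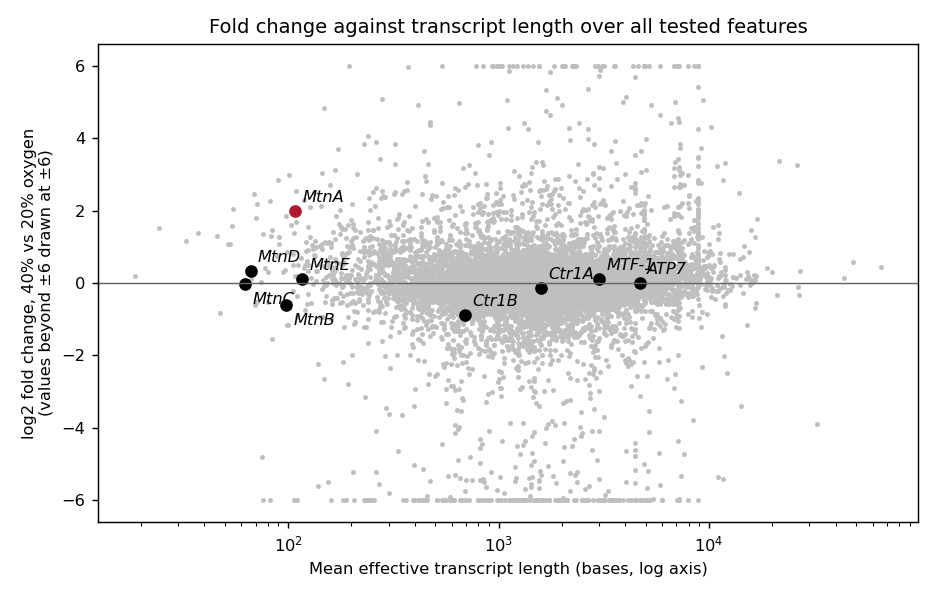
Log2 fold change at 40% against 20% oxygen, with values beyond 6 in size drawn at 6, against mean effective transcript length in bases on a log axis, for all 10068 tested features in grey with the 9 tested genes named. MtnA (1.99, in red) stood above MtnB, MtnC, MtnD and MtnE (-0.60 to 0.33). These genes all have mean effective lengths of 50 to 130 bases, and MtnC and MtnD are shorter than MtnA. Of the 66 other tested features in that range, 9 stood above MtnA.

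Of 34 tested genes in 3 lists of other metal and thiol handling, edgeR called 1 at 40% against 20%, where 4.13% of all features were called, and 0 at 40% against 10%, where 2.19% were. Of these 34, 8 had an unadjusted edgeR p below 0.05 in each comparison, where 21% and 19.7% of all features did. Between batches 19 of the 34 were called, where 55.8% of all features were. Of the other copper proteins, 14 of 21 listed genes were tested, and 1 rose at 40% against 20%: Pal2, an enzyme of peptide amidation that acts after the copper enzyme Phm. It had 15.5, 17.9 and 13.5 TMM-scaled CPM at 10%, 15.9, 13.9 and 11.6 at 20% and 22.0 at 40%, above all other libraries (log2 fold change 0.90, SE 0.16, edgeR adjusted p = 0.044). Leaving out any 1 of the 6 libraries at 10% and 20% ended this call (log2 fold change 0.86 to 0.94, edgeR adjusted p = 0.0714 to 0.137), as did the replicate block (adjusted p = 0.101) and limma voom (adjusted p = 0.0802). Without replicate 3 at 10%, the multicopper oxidase Mco4 was called in its place (2.56, SE 0.22, adjusted p = 0.0277). The list's median was 0.05 at 40% against 20%, where that of all features was -0.03. The superoxide dismutase Sod1 (log2 fold change -0.10, SE 0.14), the copper chaperones Atox1 (0.21, SE 0.11) and Cox17 (-0.02, SE 0.14) and the amidating enzyme Phm (-0.08, SE 0.10) did not pass the test there.

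Of 17 zinc and manganese transporters, 16 were tested and 0 were called by edgeR in any of the 3 oxygen comparisons, with medians of 0.03 at 10% against 20%, -0.12 at 40% against 20% and -0.18 at 40% against 10%. DESeq2, which called 9.65% of all features at 40% against 20%, called Zip89B lower (-1.96, adjusted p = 0.0011) and Zip42C.1 higher (2.21, adjusted p = 0.0306). The edgeR values were -1.99 (adjusted p = 0.0586, and 0.0451 with the replicate block) and 2.17 (adjusted p = 0.139). The most abundant of the list, ZnT63C (0.11), Zip48C (-1.13), Catsup (-0.15) and the manganese transporter Mvl (-0.10), did not pass the test at 40% against 20%.

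The enzymes of glutathione synthesis, which makes the other main thiol that binds copper in cells, were all tested and 0 of 4 were called by edgeR or DESeq2 in any oxygen comparison. Their log2 fold changes at 40% against 20% were -0.39 for Gclc (SE 0.15, edgeR adjusted p = 0.225), -0.73 for Gss1, -0.78 for Gss2 and -0.04 for Gclm. All 4 lay below 0, with a median of -0.56. At an unadjusted edgeR p below 0.05 there was 1 of the 4, Gclc, where 21% of all features passed it. At 10% against 20% edgeR called 0 of the 34 tested genes of the 3 lists and 3 had an unadjusted p below 0.05, where 6.24% of all features did. DESeq2, which called 1.34% of all features, called 2 of them, the multicopper oxidases Mco1 (0.85, adjusted p = 0.000166) and Mco4 (1.88, adjusted p = 0.000827), and limma voom 0.

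Markers of other cell types moved with batch and in part with oxygen, and their part in these results was not tested. The 4 markers of copper cells and the acid region, all detected in every library, summed to 131 to 160 TMM-scaled CPM in batch 1, and to 54.1, 39.1 and 32.9 in batch 2 at 10%, 20% and 40%. The 15 visceral muscle markers summed to 819 to 1140 in batch 1 and to 14600, 12900 and 12300 in batch 2 in the same order. The tracheal markers, 5 or 6 of 6 detected, summed to 11.1 to 12.1 in batch 1 and 143 to 169 in batch 2. The 7 fat body markers, 5 or 6 of them detected, with Fbp1 or Fbp2 at 0 in 5 libraries, summed to 220 to 647 in batch 1 and to 2250, 1250 and 1010 in batch 2. The tubule and hindgut markers, 5 to 7 of 7 detected and otp at 0 in 2 libraries, summed to 659 to 920 in batch 1 and 328, 488 and 220 in batch 2. Haemocyte markers (3 or 4 of 5 detected, He at 0 in 5 libraries) summed to 1.7 to 2.31 and 11.4 to 23.3. Of 7 ovary markers 3 to 7 were detected, with a sum of 2.33 to 118 in batch 1 and 9.62 to 19.0 in batch 2, and osk, vas and bcd at 0 at 40%.

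Across the 7 libraries, with each batch's mean removed, the features whose TMM-scaled log2 CPM most resembled that of MtnA were wge (Pearson r = 0.99), CG14408 (0.989), Nak (0.989), CG4646 (0.989) and CG14270 (0.987). Each of these 5 had its highest batch 2 level in the 40% library, and 7537 features were searched. With batch means removed, MtnA differed mostly between that library and its batch mates, so a high coefficient with MtnA rests largely on 1 library. Those most like MtnC were RpL35 (0.969), Mpi (0.966), RpL12 (0.959), CG5180 (0.935) and CG34198 (0.921). Within the copper genes, MtnA had negative coefficients with every other tested metallothionein (-0.39 to -0.11) and with Ctr1B (-0.67) and Ctr1A (-0.68). MtnB was most like ATP7 (0.88) and Ctr1B (0.77), and the neighbours MtnD and MtnE had 0.75. All of these share the same 7 libraries and are given as a description.

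**Figure D5:**
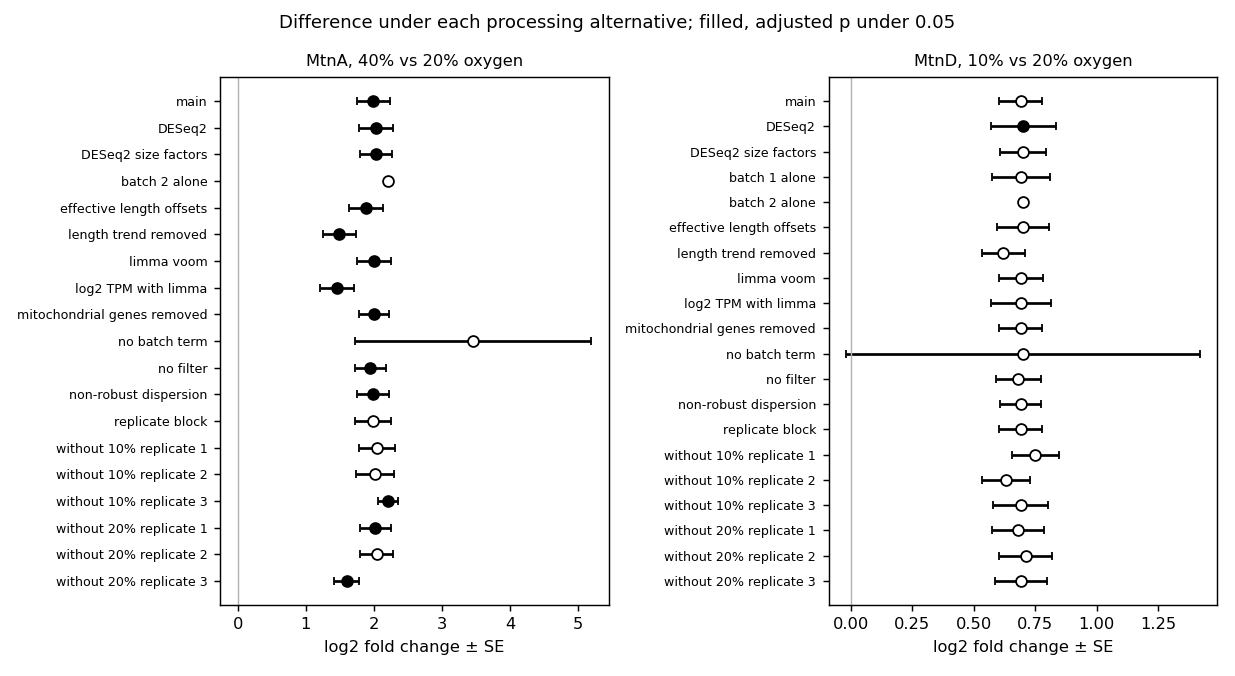
Log2 fold change with its SE for MtnA at 40% against 20% oxygen and for MtnD at 10% against 20% under each processing alternative, filled where the adjusted p was below 0.05; values from batch 2 alone have no SE. MtnA stayed between 1.46 and 2.21 in every fit with batch as a term and was 3.46 with none, while MtnD stayed between 0.62 and 0.75 and is filled under DESeq2.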

How the data were processed

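For each library the authors deposited a transcript table that holds, per the file headers, expected counts (estimated reads per transcript), TPM and effective length in bases, and for the series a table of each transcript's gene. The submitters' processing notes name STAR 2.7.11b and Salmon 1.10.3, and their settings and the genome build were not given in the sources used here. Every one of the 41539 transcripts has their length in the Ensembl BDGP6.54 annotation, which gives the coordinates.

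The members and lists were chosen with earlier results of these data known. All 10 members are reported, and from each list the called genes and up to 4 with the highest mean TPM. Cox17 was matched by case, and 7 of 8 ovary markers are in the gene table.

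Expected counts as deposited were added up over each gene's transcripts and rounded. Depth was 19.22 to 22.22 M counts a library. The floor of 3 counts and the exact Clopper-Pearson 95% intervals cover counting error only. All pairs of libraries differed by more than sampling noise (chi-square per degree of freedom 35.1 or more). The test was edgeR 4.0.16's robust quasi-likelihood test (R 4.3.3) with TMM, filterByExpr, batch as a covariate, and Benjamini-Hochberg adjusted p below 0.05 over all features. The fit of 10% against 20% used 6 libraries, and the fits of 40% used all 7. SEs are those implied by the test statistic. A further fit had an oxygen by batch term. On the deposited TPM, limma 3.58.1 was run on log2(TPM + 0.1) where mean TPM was at least 1, which understates changes of low genes. Alternatives were DESeq2 1.42.0 (test and size factors), limma voom, no filter, mitochondrial genes removed and effective length offsets. Others were a lowess length trend (span 0.3) removed, single batches, no batch term, the replicate number as a block and each replicate left out. In the block fits of 40%, batch 2 was a single block. A non-robust fit and the alternatives of the list counts were added after seeing the data. The test was also run on counts simulated with the spread fitted to these libraries. That run cannot show whether a call from the single 40% library is sound, as that group has no spread of its own. Same-numbered libraries at 10% and 20% share a batch in the labels, and their deviations from the group means correlated at 0.44, 0.447 and 0.739 for numbers 1, 2 and 3. Unlike numbers within batch 1 correlated as highly (0.527 and 0.441), and with batch removed the pairing of numbers 1 and 2 gave r = -0.0534. Batch is in every main fit, and blocked values stand beside the calls they change.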

Additional observations from a re-analysis of the deposited data

Results flagged for a closer look

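The difference between 10% and 20% oxygen pointed in opposite directions in the batches for MtnA, MtnB and MtnE, with every library of 1 batch moved one way and the other batch the other way. For MtnA the difference in log2 fold change, batch 2 minus batch 1, was 0.62 (SE 0.17, edgeR adjusted p = 0.388, DESeq2 adjusted p = 0.00981). For MtnB it was 2.18 (SE 0.26, edgeR adjusted p = 0.135, DESeq2 adjusted p = 5.1e-08). For MtnE it was -0.92 (SE 0.32, edgeR adjusted p = 0.464), and DESeq2 did not call it. By edgeR 0 of the 9 tested genes were called for this interaction, where 0.0862% of all features were. An unadjusted edgeR p below 0.05 was seen for 4 of the 9, where 10.7% of all features had it. DESeq2 called 2 of the 9, where it called 1.42% of all features. Batch 2 has 1 library a group, so its groups could not overlap and its part of each difference rests on a pair of libraries. The share of all features with the same pattern of opposite directions is not given here.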

How the results depend on the processing

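Of 880 pairs of a result and an alternative, 749 were counted as the same and 48 reversed, mostly values near 0. Among single values 658 of 755 were the same, which meant keeping direction and side of the threshold. Values of batch 2 alone, with no test, were the same when within the SE of the main value. Counts of calls were the same when close to the main count. The causes were not tested except where the construction shows it. At 10% against 20% oxygen, DESeq2 called 1 of these genes and 2 list genes, where it called 1.34% of all features. Reversals there were 0.15 for MtnA and 0.20 for the family sum with no batch term, and in batch 1 alone -0.43 for MtnB, 0.01 for Ctr1A, -0.01 for Ctr1B and -0.01 for ATP7. In batch 2 alone, with no test, the sign was also the opposite for the family sum (0.30), MtnA (0.26), MtnC (-0.01) and MtnE (-0.09). At 40% against 20%, 3 of these genes were called on log2 TPM and 0 with no batch term. On log2 TPM 2120 of all 7727 features were called, 2011 of them lower, and the median of all features was -0.46. With no batch term 0 of all features were called. List calls were 0 with DESeq2 size factors, mitochondrial genes removed, non-robust dispersion, limma voom or no batch term. They were 2 with no filter, 3 with DESeq2 and 12 on log2 TPM. Of all features, 530 of 13867 were called with no filter and 972 of 10068 with DESeq2. Over all features the non-robust fit called 319 at 40% against 20% and 117 at 40% against 10%.

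With no batch term, values at 40% against 20% were 3.32 for the family sum, 1.51 for MtnB, 0.50 for MtnC, 0.13 for Ctr1B and -0.57 for MTF-1. With the length trend removed and on log2 TPM, MtnD was -0.34 and -0.23 and MtnE -0.37 and -0.42. MTF-1 was -0.26 on log2 TPM. ATP7 was 0.03 with DESeq2 size factors, 0.02 with DESeq2 and 0.01 with length offsets. At 40% against 10%, these genes' calls were 2 with DESeq2, 2 with the length trend removed, 4 on log2 TPM and 0 with no batch term. List calls were 2 with DESeq2 and 10 on log2 TPM. Of all 10068 features, 814 were called with DESeq2, 148 with the length trend removed and 0 with no batch term. On log2 TPM 2127 of 7727 were called, 2067 of them lower. With no batch term the values were 3.12 for the family sum, 0.06 for MtnB, 0.39 for MtnC, 0.53 for MtnD, 0.60 for MtnE and -0.59 for MTF-1, and MTF-1 was -0.27 on log2 TPM. Between batches, 5 genes were called with the length trend removed, where 4255 of 9278 features were. MtnC was -0.80 and MtnD -0.02 there, and MtnC was -0.37 on log2 TPM. For the interaction DESeq2 called 2 genes, where it called 1.42% of all features, and MtnD was -0.01 with DESeq2 and with its size factors.

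Leaving out 1 replicate each moved these genes' calls between 0 and 1 at 40% against 20% and between 0 and 2 at 40% against 10%, list calls at 40% against 20% between 0 and 1, and the family sum between 1.61 and 2.11, 1.81 and 2.31, and -0.20 and 0.04 in the 3 oxygen comparisons (40% against 20%, 40% against 10%, 10% against 20%). Ranges with both signs were MtnB -0.44 to 0.65, Ctr1A -0.08 to 0.01, Ctr1B -0.01 to 0.50 and ATP7 -0.02 to 0.11 at 10% against 20%. At 40% against 20% they were MtnB -1.87 to 0.31, MtnC -0.11 to 0.13, MtnE -0.16 to 0.76 and ATP7 -0.15 to 0.08, and at 40% against 10% MtnB -1.43 to 0.75 and ATP7 -0.14 to 0.09.

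With the replicate block, 0 of these genes were called at 40% against 20% and 0 at 40% against 10%, where 51 and 11 of 10068 features were. MtnA was 1.99 (edgeR adjusted p = 0.0615) and 2.15 (adjusted p = 0.0744), and the family sum 1.93 (adjusted p = 0.0576) and 1.97 (adjusted p = 0.0719). Among the list genes the block ended the call of Pal2 and called Zip89B at 40% against 20%. It changed no other call of these genes. The single 40% library and 3 libraries a group limit what could be called.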
